A study of Mus musculus with 4 samples.

Results

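Il7r, Sit1 and Tox are 3 of the 56748 gene IDs counted in RNA from mouse lymph nodes. The mice had experimental autoimmune encephalomyelitis (EAE), a model of multiple sclerosis in which T cells raised against myelin attack the brain and spinal cord. They were picked by symbol as T cell genes whose names appear to sit on their own reads. The mice fell into 2 groups. BrQ mice (replicates 1 and 3) had EAE and were given 2-bromo-1,4-naphthalenedione (BrQ), a brominated naphthoquinone. Vehicle mice (replicates 1 and 3) had EAE and served as controls. Strain, age, sex, dose, route and time of BrQ were not stated, and all 4 mice had EAE. Each group was thus 2 mice with 1 library each, and the p-values reflect variation among those 4 animals alone.

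Il7r encodes the alpha chain of the interleukin 7 receptor, which pairs with the common gamma chain and keeps naive and memory T cells alive; innate lymphoid cells and B cell precursors carry it too. Sit1 encodes a transmembrane adaptor of lymphocytes that binds the phosphatase SHP2 and dampens signals of the T cell receptor. Tox encodes a nuclear protein with a high mobility group box that CD4 T cell development in the thymus requires. It is also known for the exhausted state of CD8 T cells under lasting antigen.

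In BrQ lymph nodes the receptor gene Il7r and the adaptor gene Sit1 were lower than in Vehicle lymph nodes, and the nuclear factor gene Tox was higher. Il7r stood at 0.66-fold, Sit1 at 0.58-fold and Tox at 1.65-fold of the Vehicle level. All 3 passed edgeR's quasi-likelihood test at an adjusted p under 0.05, where 45.7% of the 10223 features tested passed, 23.6% as higher and 22.2% as lower. That split was 2409 higher and 2267 lower features, and 3603 and 1072 with library size alone as the scaling. Passing was therefore common in these libraries, and 3 of 3 is not a result about T cell genes. In bulk tissue, fewer cells of a type and less RNA per cell cannot be told apart.

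The libraries held 6813832 to 7989226 reads in genes. Between 87.0% and 89.0% of all counted read rows named no gene. Over most of the genome, Cd4 and Cd8a included, the deposited gene names look displaced from the reads they should hold. Single nuclear genes were therefore read by name only in stretches of mm10 where an earlier look at these tables found names and reads in place. The stretches used here were chromosome 4 from 3 to 41 Mb and from 43 to 62 Mb, and chromosome 15 from 8 to 38 Mb. They held 395 protein-coding genes. Scaling, fit and p-value adjustment still drew on all 10223 features tested, of which 314 lay inside the stretches. The fold changes and the 45.7% thus rest largely on features not read by name. When scaled to features of the stretches alone, log2 fold changes were -0.45 (Il7r), -0.63 (Sit1) and 0.87 (Tox). All 3 still passed there. Of 19 T cell markers listed, these 3 genes were the ones inside, so a T cell source of their reads could not be checked with other T cell markers. The mitochondrial share of gene reads was 15.8% (BrQ replicate 1) and 12.1% (BrQ replicate 3), against 20.6% (Vehicle replicate 1) and 30.3% (Vehicle replicate 3). With mitochondrial genes left out and TMM scaling kept, the 3 log2 fold changes were -0.61 (Il7r), -0.78 (Sit1) and 0.72 (Tox). Because TMM scaling was applied again in that setting, it could barely move the values and does not test the effect of the mitochondrial share. Library size without mitochondrial genes and without TMM was not run.

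Il7r (ENSMUSG00000003882) lies on the minus strand of chromosome 15 from 9505788 to 9530176 in GENCODE M21 on GRCm38, and shares no exonic base with another gene there. It held 4097 and 4704 reads in BrQ replicates 1 and 3, against 5590 and 5869 in Vehicle replicates 1 and 3. Scaled with TMM factors these were 516 and 605 CPM (gene reads scaled to a common library total) in BrQ and 810 and 898 CPM in Vehicle. Both BrQ libraries lay below both Vehicle libraries, as raw reads and as CPM. The group means were 561 ± 63.1 CPM in BrQ and 854 ± 62.4 CPM in Vehicle (SD, n = 2 each). The log2 fold change was -0.61 with a standard error (SE) of 0.14 (edgeR adjusted p = 0.00616). The call was lost with library size alone as the scaling (-0.23, edgeR adjusted p = 0.276) and without BrQ replicate 1 (-0.48, edgeR adjusted p = 0.0818).

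Sit1 (ENSMUSG00000028460) is a short gene on the minus strand of chromosome 4 from 43482081 to 43483734, and none of its 1262 exonic bases is shared. It held 642 and 592 reads in BrQ replicates 1 and 3, against 1006 and 806 in Vehicle replicates 1 and 3. In CPM the values were 80.9 and 76.2 in BrQ and 145.7 and 123.3 in Vehicle, so the groups did not overlap. The means were 78.5 ± 3.32 CPM in BrQ and 134.5 ± 15.8 CPM in Vehicle (SD, n = 2 each). The spread of Sit1 within Vehicle was wider than within BrQ. The log2 fold change was -0.78 (SE 0.16, edgeR adjusted p = 0.00362). The call was lost with library size alone (-0.42, edgeR adjusted p = 0.0881) and without BrQ replicate 3 (-0.72, edgeR adjusted p = 0.0582).

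Tox (ENSMUSG00000041272) spans chromosome 4 from 6686353 to 6991557 on the minus strand, and 3.42% of its exonic bases are shared with the antisense gene Gm11802. The strand setting of the counting was not stated, so reads on that shared part are uncertain. Tox held 638 and 554 reads in BrQ replicates 1 and 3, against 321 and 296 in Vehicle replicates 1 and 3. In CPM it stood at 80.4 and 71.3 in BrQ and at 46.5 and 45.3 in Vehicle. Its direction was thus opposite to that of Il7r and Sit1, again with no overlap between the groups. The means were 75.8 ± 6.42 CPM in BrQ and 45.9 ± 0.857 CPM in Vehicle (SD, n = 2 each). The log2 fold change was 0.72 (SE 0.17, edgeR adjusted p = 0.00682). Without BrQ replicate 1 it was 0.65 and no longer passed (edgeR adjusted p = 0.0618). The value was largest with library size alone, 1.09. Of the 10223 features tested, 76.1% had groups that did not overlap in CPM, so the separation of these 3 genes was shared with most features.

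**Figure D1:**
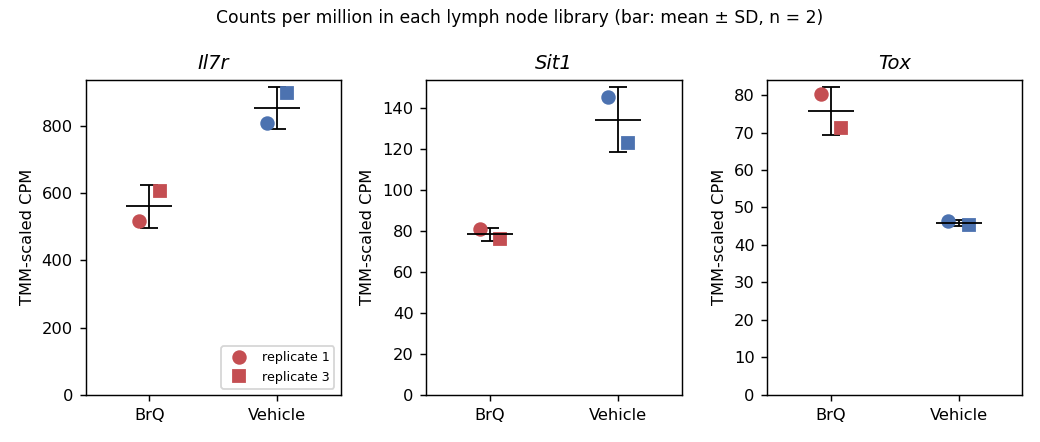
Il7r, Sit1 and Tox in TMM-scaled CPM (y axis, from 0) for BrQ (left) and Vehicle (right) lymph nodes. Circles are replicate 1, squares replicate 3, and the black bars are the mean ± SD of 2 libraries. Il7r and Sit1 lie lower in both BrQ libraries, and Tox lies higher, at 80.4 and 71.3 CPM against 46.5 and 45.3 CPM.

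Per kilobase of exon in that annotation, the level followed the order Il7r, Sit1, Tox in all 4 libraries. Il7r had 111 and 130 CPM per kb in BrQ, against 174 and 193 CPM per kb in Vehicle. Sit1 had 64.1 and 60.3 CPM per kb in BrQ, against 115 and 97.7 CPM per kb in Vehicle. Tox had 10.6 and 9.37 CPM per kb in BrQ, against 6.11 and 5.95 CPM per kb in Vehicle. The distance between Sit1 and Tox was therefore smaller in BrQ than in Vehicle lymph nodes, although no pair of these genes changed places. Among 249 protein-coding genes tested inside the stretches, 23 had a higher mean level per kilobase than Il7r, 40 than Sit1 and 174 than Tox.

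Ratios of reads within a library do not depend on the scaling between libraries. Il7r had 6.42 and 8.49 reads for each Tox read in BrQ replicates 1 and 3, against 17.4 and 19.8 in Vehicle replicates 1 and 3. On the log2 scale this ratio averaged 2.88 in BrQ (SD 0.28) and 4.22 in Vehicle (SD 0.13), so it was lower in BrQ by a difference of -1.33. Tox and Sit1 were nearly level in BrQ, with 0.994 and 0.936 Tox reads for each Sit1 read, whereas Vehicle had 0.319 and 0.367. The log2 difference was 1.49, a 2.82-fold shift that was larger than the spread between replicates. Both of these differences come from the same reads as the opposite fold changes given above, so they are no separate support. The ratio of Il7r to Sit1, by contrast, overlapped between the groups, at 6.38 and 7.95 in BrQ and 5.56 and 7.28 in Vehicle. Its log2 difference was 0.16, with SDs of 0.22 in BrQ and 0.28 in Vehicle.

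Pax5, the transcription factor of B cell identity, lies in the same stretch of chromosome 4 and gave a B cell reading for comparison. It stood at 1063 ± 46.5 CPM in BrQ and 1242 ± 12.7 CPM in Vehicle and did not pass (log2 fold change -0.22, edgeR adjusted p = 0.155). Il7r had 0.501 and 0.552 reads for each Pax5 read in BrQ, against 0.657 and 0.718 in Vehicle. The log2 ratio of Sit1 to Pax5 differed by -0.55 and that of Tox to Pax5 by 0.95, BrQ minus Vehicle. Directions relative to Pax5 were thus the same as on the CPM scale. Relative to Cd72, the other B cell gene listed inside the stretches and itself lower in BrQ, the log2 differences were 0.40 for Il7r, 0.23 for Sit1 and 1.73 for Tox, so the direction turned for Il7r and Sit1. Cd72 was chosen after its values were seen, shares exonic bases with other genes, and these differences were not tested. With 2 mice against 2, a two-sided exact permutation test cannot go below p = 0.33. That was the value for 5 of the 6 ratios (0.40 after Benjamini-Hochberg adjustment over the 6), while Il7r to Sit1 gave 0.67 in the same exact permutation test.

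**Figure D2:**
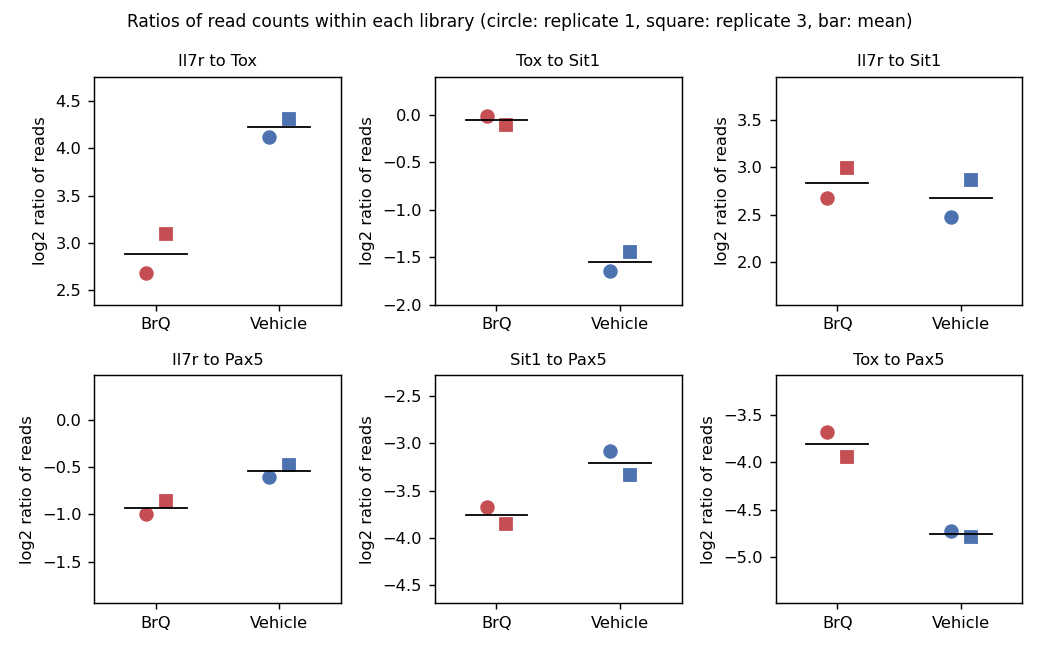
Log2 ratios of read counts (y axis, the same height of range in each panel) between pairs of genes within each library, BrQ left and Vehicle right. Circles are replicate 1, squares replicate 3, and black lines the group means. Il7r to Tox and Tox to Sit1 lie apart between the groups, while Il7r to Sit1 overlaps.

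The table of RefSeq promoter windows on GRCm38.p6 held 2 of the 3 genes, Il7r and Sit1. Their upstream sequences are shown because these are the genes with a window there, and Tox had none to compare. Each line gives the 250 bases before the start that this RefSeq table uses (9529876 for Il7r and 43483709 for Sit1), 5′ to 3′ on the minus strand, the strand of the gene. The GENCODE gene spans given above begin further upstream, so all 250 bases of the Il7r window and 25 of the Sit1 window lie inside them. Capitals mark the letters GGAAG, 1 form of the core of binding sites for ETS family transcription factors, here found as CTTCC on the opposite strand. This family is known to act at the Il7r promoter. The shorter form GGAA also occurs elsewhere in both windows and was neither marked nor counted.
Il7r, chr15:9529877-9530126: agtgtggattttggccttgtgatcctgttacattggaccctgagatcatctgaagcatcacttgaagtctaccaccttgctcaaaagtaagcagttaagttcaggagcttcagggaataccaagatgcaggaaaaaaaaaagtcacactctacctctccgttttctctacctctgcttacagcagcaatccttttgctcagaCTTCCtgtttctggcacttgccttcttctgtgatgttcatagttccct
Sit1, chr4:43483710-43483959: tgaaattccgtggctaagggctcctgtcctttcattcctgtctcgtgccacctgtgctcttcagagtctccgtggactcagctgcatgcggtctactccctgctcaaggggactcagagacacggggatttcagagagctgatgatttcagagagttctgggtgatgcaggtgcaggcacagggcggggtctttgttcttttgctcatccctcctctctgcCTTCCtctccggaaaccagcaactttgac
Each window held 1 match of GGAAG, whose first base lay 48 bases upstream of the RefSeq start in Il7r and 29 bases upstream of it in Sit1. Both strands were searched in all cases, and 64.1% of 32851 promoter windows of the same length held GGAAG, so these letters are common. The RUNX letters TGNGGT occurred 1 time in Sit1 and 0 times in Il7r, against 40.1% of all windows with a match. The FOXO letters TGTTTAC occurred in neither window, and 3.17% of all windows held them. These are matches of letters only.

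The genes beside each of the 3 were listed to show which names around them held reads. The 6 nearest protein-coding genes on each side were taken, 36 in all. Around Il7r, the UDP-glycosyltransferase genes Ugt3a1 and Ugt3a2 held 0 reads in all 4 libraries and Agxt2, an aminotransferase gene of kidney and liver, held 0 to 2. In the same neighbourhood the ribosome assembly gene Brix1 had counts of 1176 and 1048 in BrQ libraries, against 1024 and 1114 in Vehicle libraries. Around Tox, the bile acid synthesis gene Cyp7a1 and the growth factor gene Gdf6 held 0 reads in each library. The small GTPase gene Rab2a there had counts of 2588 and 2478 in BrQ libraries, against 2246 and 2357 in Vehicle libraries. Around Sit1, Tln1, which encodes the integrin linker talin 1, had counts of 16593 and 16658 in BrQ libraries, against 19351 and 18590 in Vehicle libraries. Of the 12 neighbours of Sit1, 0 were without reads in all 4 libraries, and the lowest, Atp8b5 and Fam166b, held 0 to 3 reads per library. Some genes known from other tissues did hold reads. Spef2, a sperm flagellum gene beside Il7r, held 72 and 76 in BrQ, against 106 and 128 in Vehicle. Car9, a carbonic anhydrase gene beside Sit1, held 58 and 45 in BrQ, against 59 and 54 in Vehicle. Whether each name sits on its own reads was not tested gene by gene.

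Of 10 neighbours of Sit1 that were tested, 7 were lower in BrQ and 0 higher, with a median log2 fold change of -0.78, the same as that of Sit1. Ccdc107, the next gene at 9.17 kb, was at 70.2 ± 2.27 CPM in BrQ and 273.3 ± 47.4 CPM in Vehicle (log2 fold change -1.96, SE 0.17, edgeR adjusted p = 5.85e-05), with 8.02% of its exonic bases shared. Arhgef39 fell by 1.60 on the log2 scale (SE 0.20). Cd72, a B cell surface receptor gene 27.5 kb from Sit1, stood at 1030 ± 10.5 CPM in BrQ and 2070 ± 83.5 CPM in Vehicle, a log2 fold change of -1.01. Of its exonic bases 41.6% overlap other genes, among them the kinase gene Tesk1, which fell by 1.10, so reads of this pair are uncertain. Rusc2, at under 6 CPM in either group, Tln1 and Creb3 also fell, by 1.50, 0.42 and 0.44. Tln1 and Creb3 were at -0.05 and -0.07 with library size alone and did not pass there, and all 3 lost the call without any 1 of BrQ replicate 1, BrQ replicate 3 and Vehicle replicate 3. Tln1 and Creb3 overlap in span, and 3.67% of the exonic bases of Tln1 and 20.8% of those of Creb3 are shared. Like Cd72 and Tesk1, they are not fully separate readings. The other 3 tested, Unc13b, Car9 and Tpm2, did not pass, with log2 fold changes from -0.56 to -0.32. Across the 314 features tested in the stretches, 25.8% were lower and 18.2% higher, with a median log2 fold change of -0.20, against 0.05 over all features. With library size alone 4 of the 10 neighbours of Sit1 passed as lower, and without BrQ replicate 1, BrQ replicate 3 or Vehicle replicate 3 it was also 4.

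Tox had 8 tested neighbours, of which 3 were higher in BrQ and 0 lower, with a median log2 fold change of 0.26. With library size alone 6 passed as higher, with DESeq2 1, and without any 1 of BrQ replicate 1, BrQ replicate 3 and Vehicle replicate 1 also 1. Sdcbp, which encodes the scaffold protein syntenin 1, had the largest difference of these, at 1082 ± 0.810 CPM in BrQ and 434.0 ± 11.2 CPM in Vehicle (log2 fold change 1.32, SE 0.12, edgeR adjusted p = 9.54e-05). Bpnt2 and Asph rose by 0.43 and 0.80, but without any 1 of BrQ replicate 1, BrQ replicate 3 and Vehicle replicate 1 neither passed. The nearest gene, Nsmaf, did not pass (0.34, edgeR adjusted p = 0.0828). Il7r had 8 tested neighbours, of which 1 was lower (Spef2, -0.89) and 1 higher (Prlr, 2.15, at under 4 CPM in either group). Neither passed without BrQ replicate 3, and neither passed with no low count filter. The value of Prlr ranged from 1.39 without Vehicle replicate 1 to 3.58 without Vehicle replicate 3, and it did not pass without Vehicle replicate 1 (edgeR adjusted p = 0.165). The other 6 did not pass, and the median log2 fold change was -0.09. The difference between the neighbourhoods was not tested.

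**Figure D3:**
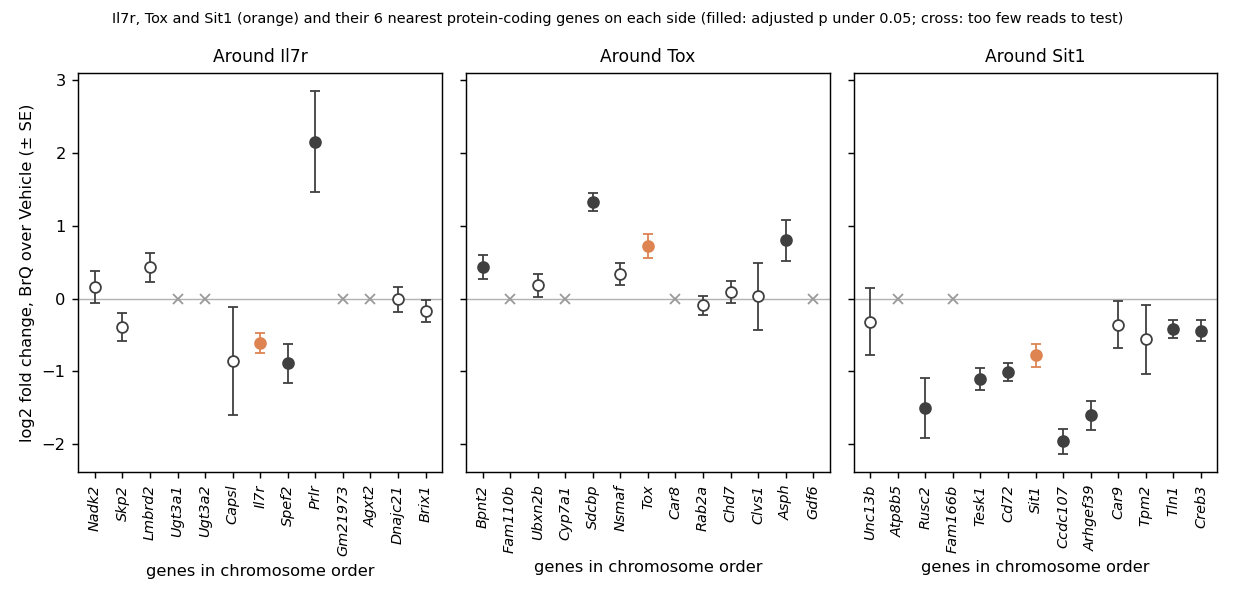
Log2 fold change of BrQ over Vehicle (y axis, bars are SE) for Il7r, Tox and Sit1 (orange) and their nearest protein-coding genes in chromosome order. Filled points passed at an adjusted p under 0.05, open points did not, and crosses held too few reads to be tested. All 10 points around Sit1 lie below 0, whereas 7 of 8 around Tox lie above 0. These counts hold for TMM scaling. With library size alone, 8 of 10 around Sit1 and 0 of 8 around Tox were below 0. With DESeq2 it was 10 of 10 and 2 of 8.

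A list of 17 other lymphocyte and signalling genes inside the stretches gave 5 higher, 2 lower and 10 that did not pass. The median log2 fold change was 0.08. The 2 lower were Cd72 and Tln1, both already counted among the neighbours of Sit1. Skp2, also listed, is a neighbour of Il7r, so the list is not fully separate from the neighbours. With library size alone the list gave 8 higher and 1 lower. With TMM scaling, the share called on the list (5 higher and 2 lower of 17) is close to the 43.9% of features called in the stretches. The largest rise was that of Nr4a3, an orphan nuclear receptor gene induced by antigen receptor signals, at 123.7 ± 0.209 CPM in BrQ and 23.8 ± 2.34 CPM in Vehicle. Its log2 fold change was 2.37 (SE 0.17, edgeR adjusted p = 3.65e-05). Gem, a small GTPase gene of activated T cells, rose by 1.63 (SE 0.20). Ripk2, the kinase gene acting below the NOD receptors, stood at 117.9 ± 15.6 CPM in BrQ and 62.6 ± 5.05 CPM in Vehicle, a log2 fold change of 0.91 near that of Tox. Lyn, a Src family kinase gene of B and myeloid cells, rose by 0.81 (SE 0.13). Coro2a, a coronin gene, rose by 0.39 and lost the call under 7 of the alternatives, DESeq2 and 3 of the left-out libraries among them.

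Bach2, a repressor gene that keeps naive T cells and B cells quiescent, was nearly level at 217.8 ± 13.5 CPM in BrQ and 218.4 ± 21.4 CPM in Vehicle. Tgfbr1 (-0.09), Map3k7 (-0.20) and Ptpn3 (-0.18), which encode a receptor, a kinase and a phosphatase, did not pass either. Of the IL-7 pathway list of 22 genes, Il7r was the one inside the stretches. Of the 20 genes of the TOX family and T cell exhaustion list, Tox and Nr4a3 were inside. Of the 15 adaptor and T cell receptor signalling genes, Sit1 was the one inside. The values under the other names of these lists were not read as those genes.

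**Figure D4:**
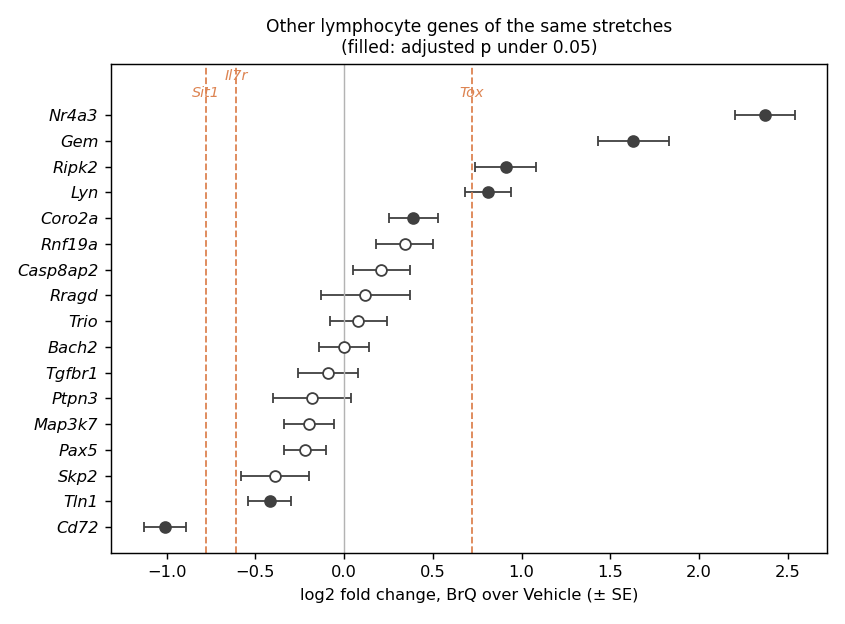
Log2 fold change of BrQ over Vehicle (x axis, bars are SE) for 17 other lymphocyte and signalling genes of the same stretches, with dashed lines at Sit1 (-0.78), Il7r (-0.61) and Tox (0.72). Filled points passed at an adjusted p under 0.05, and Cd72 at -1.01 and Nr4a3 at 2.37 mark the ends of the range.

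Likeness to each gene was measured over the 4 libraries as the Euclidean distance between log2 CPM values, each centred on its own mean, among 248 other protein-coding genes of the stretches. Nearest to Il7r were Galnt12, an O-glycosylation enzyme gene (distance 0.064), Ints8, an Integrator subunit gene (0.183), and Rgp1 (0.193). Galnt12 stood at 126.7 ± 13.4 CPM in BrQ and 200.4 ± 9.85 CPM in Vehicle. Nearest to Sit1 were Fam221b (0.075), the sialic acid synthase gene Nans (0.162) and the predicted gene Gm12353 (0.180). Gm12353 stood at under 5 CPM in either group and did not pass (edgeR adjusted p = 0.178). Nearest to Tox were Golph3, a Golgi membrane protein gene (0.097), Tmem64 (0.154) and Chmp5, a gene of the ESCRT membrane remodelling machinery (0.156). Shared exonic bases made up 29.6% in Nans, 23.8% in Gm12353, 14.6% in Rgp1, 13.8% in Golph3, 10.7% in Fam221b and 8.15% in Ints8. Galnt12, Tmem64 and Chmp5 shared none. Sit1 ranked 49 of 248 for likeness to Il7r, at a distance of 0.389. Tox ranked 216 of 248 for likeness to Il7r, at 1.364. These distances describe 4 points that carry the group difference and share library depth.

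The directions of the 3 genes were kept under each of 15 other settings, with log2 fold changes from -0.72 to -0.23 for Il7r, from -0.91 to -0.42 for Sit1 and from 0.65 to 1.09 for Tox. Among the 15, the replicate block with crossed numbers was not planned and was chosen after seeing the data. All 3 genes passed under that block, which is no separate support. Il7r and Sit1 passed under 13 of the 15 and Tox under 14. The median of all features shifted by 0.369 on the log2 scale with library size alone, with library size from all read rows by 0.208, and with scaling to the stretches by 0.149.

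**Figure D5:**
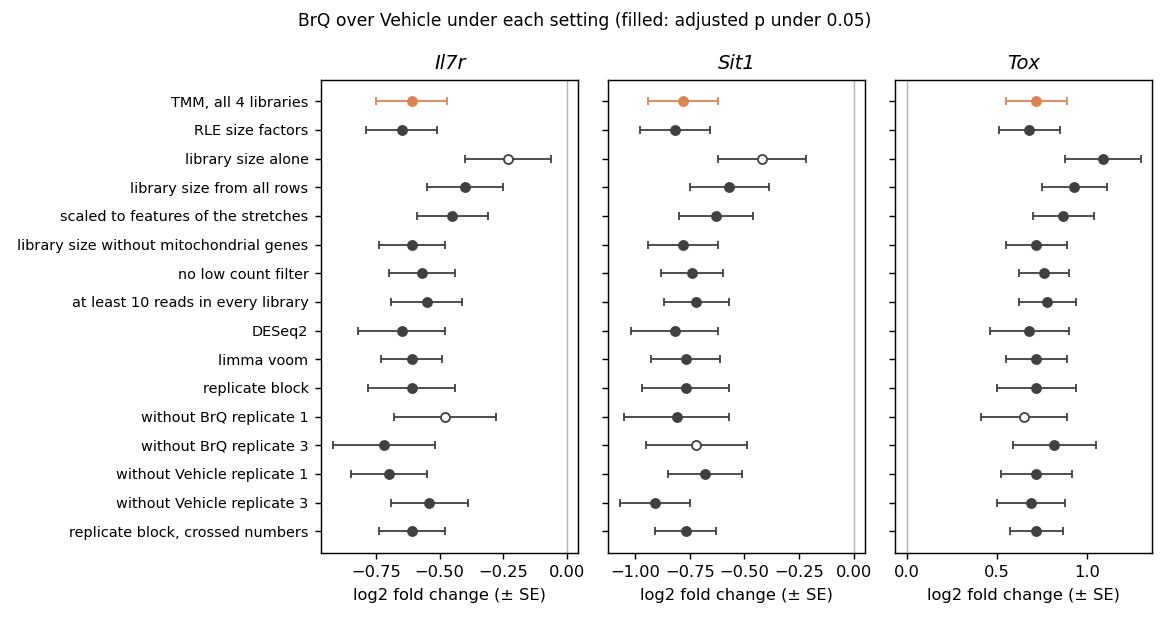
Log2 fold change of BrQ over Vehicle (x axis, bars are SE) for Il7r, Sit1 and Tox with TMM scaling on all 4 libraries (orange) and under 15 other settings (rows). The row with crossed replicate numbers was chosen after seeing the data. Filled points passed at an adjusted p under 0.05. Each point for Il7r and Sit1 lies below 0 and each for Tox above 0, and library size alone moves all 3 upward.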

How the data were processed

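Lymph node RNA of 4 mice was sequenced in paired ends from RNA with an integrity number above 8, per the labels' protocols. Tools named in the submitters' processing notes are HTSeq 0.11.2, HISAT2 2.1.0 and Trim Galore 0.6.2, with the build mm10; annotation release and strand setting are not stated there. Each mouse has its own deposited table of raw counts, unnormalized, by gene ID. Rows naming no gene (87.0% to 89.0% of all read rows) were left out of library sizes and tests.

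Positions came from GENCODE M21 (GRCm38), which held 52073 of the 56748 gene IDs. Sample titles gave group and replicate number. The test was the quasi-likelihood F-test of edgeR 4.0.16 in R 4.3.3, after filterByExpr and TMM scaling, on all features. Group was the single term; p-values were adjusted by Benjamini-Hochberg over all features (threshold 0.05). Alternatives were other scalings and count filters, DESeq2 1.42.0, limma 3.58.1 (voom), a replicate block and each library left out. Log2 CPM used a prior count of 2. Named genes are the 3 members, 17 listed lymphocyte genes, 6 neighbours on each side of a member and the 3 genes most like each. Members, lists and stretches were chosen with earlier results of these data known. Libraries of a group differed beyond sampling noise (chi-square per degree of freedom 12.4 in BrQ and 26.6 in Vehicle). Figures were drawn with matplotlib 3.10.9.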

Additional observations from a re-analysis of the deposited data

How the results depend on the processing

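With 2 mice per group, leaving out 1 library leaves a group of 1 mouse that is assumed to vary like the other. Il7r gave log2 fold changes from -0.72 to -0.48 over the left-out libraries, Sit1 from -0.91 to -0.68 and Tox from 0.65 to 0.82. With library size alone Il7r was -0.23 and Sit1 -0.42, neither passing; the cause was not tested. The BrQ minus Vehicle difference of the log2 Il7r to Sit1 ratio, 0.16, was -0.03 without Vehicle replicate 1, and ranged from -0.03 to 0.36 over the left-out libraries; the other 5 ratios kept their sign. Of all features, 4676 passed, 2409 higher and 2267 lower; with no low count filter 2481 passed, and 2031 to 4379 with 1 library left out. Library size alone gave 3603 higher and 1072 lower, all read rows 3060 and 1587, and scaling to the stretches 2835 and 1744. Of the neighbours 12 passed, 4 higher and 8 lower (8 and 4 with library size alone), 7 with no low count filter and 5 to 10 with 1 library left out. The list of 17 gave 5 to 9 calls over all settings. Of 25 other named genes that passed, 25 kept their sign and 11 their call under each planned setting. Replicate numbers are shared by title only, and same-numbered libraries deviated with a correlation of -0.119. With the replicate block 4190 features passed and the log2 fold changes were -0.61 (Il7r), -0.77 (Sit1) and 0.72 (Tox), all still passing; with crossed pairs, chosen after seeing the data, 5284 passed. Ratio differences are the same with the block by construction. SDs rest on 2 values each.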

Other observations

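Cd72 gave a further B cell reading, chosen after its values were seen. Il7r had 0.497 and 0.592 reads for each Cd72 read in BrQ replicates 1 and 3, against 0.403 and 0.422 in Vehicle replicates 1 and 3, so this ratio was higher in BrQ whereas that of Il7r to Pax5 was lower. Sit1 had 0.0779 and 0.0744 reads for each Cd72 read in BrQ and 0.0725 and 0.0579 in Vehicle. Tox had 0.0774 and 0.0697 in BrQ and 0.0231 and 0.0213 in Vehicle, a log2 difference of 1.73. For Il7r and Sit1 the direction relative to a B cell gene thus turned with the gene used, and for Tox it did not. Cd72 shares exonic bases with Tesk1, and no test was run on these ratios.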
